A study of Mus musculus with 12 samples.

Results

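Cholesterol synthesis genes under the control of sterol regulatory element-binding protein 2 (SREBP2) were followed in the livers of iron-loaded mice. The genes were *Srebf2*, which encodes SREBP2 itself, the enzyme genes *Hmgcs1*, *Idi1*, *Fdps*, *Sqle* and *Lss*, and *Insig1*, a brake on SREBP processing. They were taken by symbol from the deposited counts table, where they are 7 of 55414 Ensembl genes, and all 7 were among the 13857 genes that passed the filter on low counts. All 7 belong to synthesis or to its control, and genes of cholesterol uptake were not analysed here. The mice were young adult female C57BL/6J without an engineered allele, in 4 groups of 3 defined by what was injected into the peritoneum. The first injection was NaCl or 300 mg/kg FeSO4, an iron salt, and 6 h later the mice received PBS or 10 mg/kg dexamethasone (DEX), a synthetic glucocorticoid. Livers were collected after another 2 h, 8 h in all, so that every iron-treated mouse had been exposed to FeSO4 for 8 h and every DEX-treated mouse to DEX for 2 h. The groups are called NaCl/PBS, NaCl/DEX, FeSO4/PBS and FeSO4/DEX, and each library was made from 1 liver.

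Liver cells build cholesterol from acetyl-CoA through mevalonate, the isoprenoid chain and squalene. When sterols in the endoplasmic reticulum are scarce, SCAP escorts SREBP2 to the Golgi, where proteases release the part of the protein that enters the nucleus and switches on the enzyme genes, and *Srebf2* and *Insig1* with them. When sterols are plentiful, INSIG proteins hold the SCAP-SREBP2 complex back, so that transcripts of the pathway tend to move as a group.

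SREBP2 acts through sterol response elements (SREs) in promoters, often beside binding sites for NF-Y, the CCAAT box, and for Sp1. RefSeq promoters of 300 bases, from 250 before the start of the gene to 50 after it, were at hand for *Hmgcs1*, *Idi1*, *Insig1*, *Lss* and *Srebf2*, but not for *Sqle* and *Fdps*. Their coordinates are those of GRCm38.p6, not of the mm39 build on which the reads were counted. The promoters below are those of the gene that fell most with iron without DEX (*Hmgcs1*), of the regulator (*Srebf2*), of an enzyme gene without an SRE form in this window (*Idi1*) and of the gene for which no iron response was called (*Insig1*). Capitals mark an SRE with at most 1 base changed, and CCAAT boxes, which read ATTGG when they lie on the other strand.
Hmgcs1, chr13:119690101-119690400, plus strand: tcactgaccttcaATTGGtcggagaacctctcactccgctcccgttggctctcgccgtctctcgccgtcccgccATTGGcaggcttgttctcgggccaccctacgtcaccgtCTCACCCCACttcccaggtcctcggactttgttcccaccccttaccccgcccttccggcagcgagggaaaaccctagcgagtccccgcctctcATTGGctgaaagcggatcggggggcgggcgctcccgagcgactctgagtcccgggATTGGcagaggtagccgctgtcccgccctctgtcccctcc
Srebf2, chr15:82147019-82147318, plus strand: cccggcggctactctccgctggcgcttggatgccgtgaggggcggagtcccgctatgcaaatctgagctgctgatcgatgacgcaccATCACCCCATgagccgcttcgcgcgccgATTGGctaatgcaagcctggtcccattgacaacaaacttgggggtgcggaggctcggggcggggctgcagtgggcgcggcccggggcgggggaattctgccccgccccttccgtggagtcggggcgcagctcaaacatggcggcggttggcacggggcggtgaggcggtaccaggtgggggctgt
Idi1, chr13:8885356-8885655, plus strand: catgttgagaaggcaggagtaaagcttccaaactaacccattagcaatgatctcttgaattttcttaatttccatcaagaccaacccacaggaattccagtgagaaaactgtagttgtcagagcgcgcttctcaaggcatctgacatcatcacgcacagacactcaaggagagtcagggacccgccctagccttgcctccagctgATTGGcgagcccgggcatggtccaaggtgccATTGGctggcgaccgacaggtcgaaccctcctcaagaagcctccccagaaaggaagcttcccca
Insig1, chr5:28071162-28071461, plus strand: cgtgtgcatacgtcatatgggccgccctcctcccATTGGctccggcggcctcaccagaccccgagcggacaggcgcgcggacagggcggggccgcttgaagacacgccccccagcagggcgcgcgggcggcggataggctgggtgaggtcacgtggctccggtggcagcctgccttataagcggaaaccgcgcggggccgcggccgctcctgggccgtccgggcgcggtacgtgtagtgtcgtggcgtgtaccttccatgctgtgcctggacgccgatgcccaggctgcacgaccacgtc

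The SRE searched for, on both strands, reads AT followed by CACCCCAC. In full it was found in 0 of the 5 promoters and in 0.0913% of all 32851 promoters of the table. With 1 base different it was found in *Hmgcs1*, 138 bases before the start with the change A1C, and in *Srebf2*, 163 bases before the start with the change C10T, where positions are counted from 1 at the 5′ end of the searched element. This form occurred in 1.87% of all promoters. The *Hmgcs1* match contains the short form CACCCCAC, which 2.87% of all promoters held. CCAAT, which 37.4% of all promoters held, was found in 5 of the 5 promoters, and the Sp1 box GGGCGG, held by 35.7%, in 5 of the 5 as well. *Hmgcs1* held 4 CCAAT boxes, *Idi1* 2, and *Insig1*, *Lss* and *Srebf2* 1 each. *Insig1* alone of the 5 held the E-box CACGTG, 101 bases before the start, against 7.15% of all promoters. The glucocorticoid response element, AGAACA and TGTTCT with any 3 bases between them, was found in 0 of the 5 and in 0.00913% of all promoters. These matches describe letters and are not binding sites, and nothing was measured on the promoters.

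The libraries held 16335651 to 23827340 reads on genes (median 19602514). The hepatocyte markers that could be measured, 5 of a list of 6, summed to 1797600 to 2586200 normalized counts in the mice without DEX, where a normalized count is a read count scaled with the TMM factors of edgeR to the mean library. The members took 0.184% to 0.208% of all reads on genes in the NaCl/PBS livers and 0.0503% to 0.0761% in the FeSO4/PBS livers. Depth was ample for these genes, with no fewer than 149 reads on a member in any liver (*Idi1*, FeSO4/DEX mouse 2), and precision is set by having 3 mice a group.

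Without DEX, iron lowered 6 of the 7 genes, namely *Srebf2* and all 5 enzyme genes. For these 6 the groups did not overlap, the highest iron-treated mouse being under the lowest control, as was the case for 31% of all tested genes. The fall was steepest for *Hmgcs1*, which fell by 79.1%, and for *Idi1*, which fell by 75.4%. *Insig1* was not called, and its values overlapped between the groups. Values are given gene by gene in the order of the pathway, with the log2 fold change (LFC) and the edgeR quasi-likelihood FDR, the Benjamini-Hochberg adjusted p over all tested genes, and genes at an FDR of 0.05 or less are called.

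*Srebf2* (ENSMUSG00000022463, mm39 chr15:82031382-82093201, plus strand), the transcription factor gene, had 1642, 1920 and 1749 normalized counts in NaCl/PBS mice 1 to 3 and 1103, 1101 and 1104 in FeSO4/PBS mice 1 to 3. The iron-treated mice were nearly identical to each other and all lay below the controls. The LFC was -0.68 (SE 0.118, edgeR FDR 0.000252), so that the level fell by 37.7%.

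*Hmgcs1* (ENSMUSG00000093930, chr13:120151915-120170470, plus strand) encodes the cytosolic HMG-CoA synthase, which makes HMG-CoA from acetoacetyl-CoA and acetyl-CoA at the entry to the pathway. Its normalized counts were 17823, 16487 and 19565 in NaCl/PBS mice and 4703, 3901 and 2640 in FeSO4/PBS mice. No iron-treated mouse came near a control, and among them mouse 3 was lowest. The LFC was -2.26 (SE 0.294, edgeR FDR 2.39e-05), the largest fall among the members.

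*Idi1* (ENSMUSG00000058258, chr13:8935537-8942487, plus strand) encodes isopentenyl diphosphate isomerase, which balances the isoprenoid building blocks. It had 1280, 1378 and 1702 normalized counts in NaCl/PBS mice and 308, 459 and 304 in FeSO4/PBS mice, again without overlap. The LFC was -2.02 (SE 0.328, edgeR FDR 0.000153).

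*Fdps* (ENSMUSG00000059743, chr3:89000888-89019213, minus strand), the gene of farnesyl diphosphate synthase at the branch point to sterols and to protein prenylation, had 498, 437 and 495 normalized counts in NaCl/PBS mice and 323, 393 and 221 in FeSO4/PBS mice, with iron-treated mouse 2 not far below the lowest control. The LFC was -0.61 (SE 0.193, edgeR FDR 0.016), and the level fell by 34.3%. This call depended on 1 liver, since without FeSO4/PBS mouse 3 the LFC was -0.41 at an edgeR FDR of 0.0697.

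*Sqle* (ENSMUSG00000022351, chr15:59186869-59203043, plus strand) encodes squalene epoxidase, a rate-limiting, oxygen-dependent step. It had 3360, 4244 and 3456 normalized counts in NaCl/PBS mice and 2121, 2250 and 1433 in FeSO4/PBS mice. The groups did not overlap, and mouse 3 was again the lowest of the iron-treated mice. Its level fell by 47.5%, an LFC of -0.93 (SE 0.217, edgeR FDR 0.00245).

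*Lss* (ENSMUSG00000033105, chr10:76367298-76392976, plus strand) encodes lanosterol synthase, which closes the sterol rings. Its normalized counts were 2520, 2265 and 2632 in NaCl/PBS mice and 654, 1007 and 638 in FeSO4/PBS mice, with every iron-treated mouse far below the controls. The LFC was -1.69 (SE 0.216, edgeR FDR 2.03e-05), and the level fell by 69.0%.

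*Insig1* (ENSMUSG00000045294, chr5:28276315-28283668, plus strand), the sterol-sensing retention factor and itself an SREBP2 target, had 8264, 5091 and 6081 normalized counts in NaCl/PBS mice and 2369, 7191 and 4129 in FeSO4/PBS mice. Iron-treated mouse 1 was far below all controls while mouse 2 was above 2 of the 3, so that the groups overlapped. The LFC was -0.51 (SE 0.329, 95% interval -1.21 to 0.20, edgeR FDR 0.21). Without FeSO4/PBS mouse 1 the LFC was -0.19 at an edgeR FDR of 0.6. Without FeSO4/PBS mouse 2 it was -0.99 at 0.0135, and in a fit without the filter on low counts it was -0.51 at 0.00195. The size of the *Insig1* change thus depended on mice 1 and 2, and its call on mouse 2 and on the filter.

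**Figure D1:**
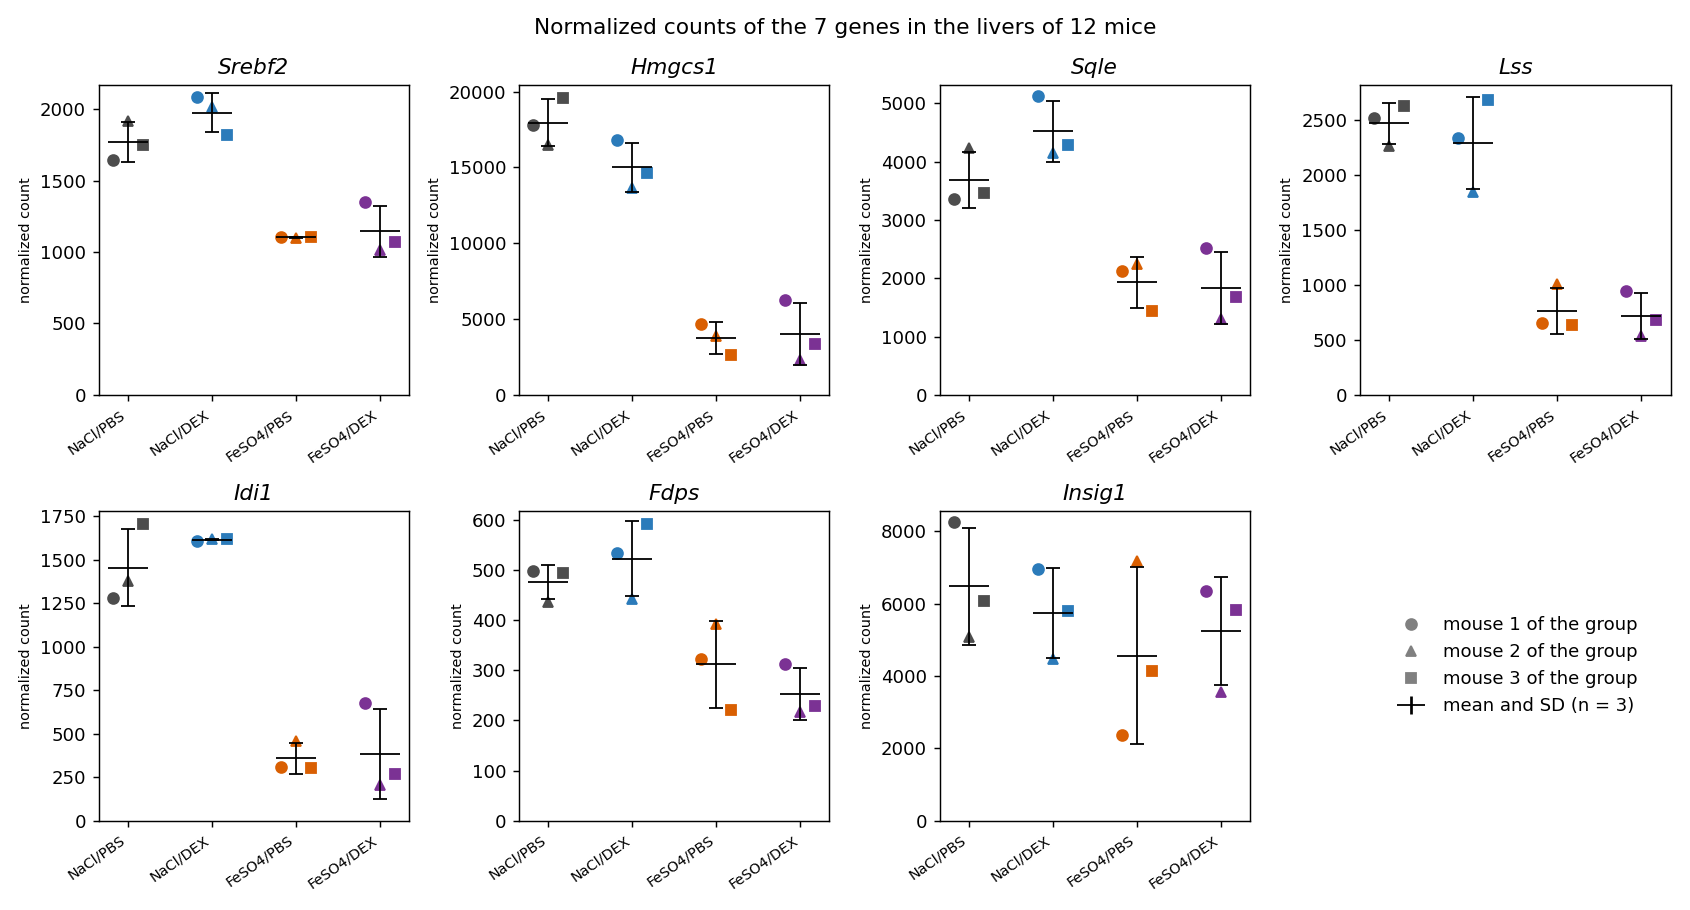
Normalized counts (vertical axis, linear, from 0) of the 7 genes in the 12 livers, by group on the horizontal axis. Symbols are mice 1 to 3 of each group and bars are the mean and SD (n = 3), and for 6 genes all FeSO4 mice lie below all mice that received NaCl and the same second injection, while the *Insig1* values overlap.

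Counted over the list, 6 of the 7 genes were called lower and 0 higher, against 27.3% of all tested genes called lower and 27.2% called higher. With scaling by library size alone, without TMM factors, the median LFC of all genes was -0.34, 2285 genes were higher and 5829 lower (3770 and 3783 with TMM), and the members were still 6 lower and 0 higher, with LFCs of -0.93 for *Fdps* to -2.59 for *Hmgcs1*. With an LFC beyond 1 in size also required, 3 of the 7 were lower (*Hmgcs1*, *Idi1* and *Lss*), against 14.7% of all genes. The median LFC of the 7 was -0.93, and that of all tested genes was -0.02. Since the genes were chosen with results of these mice known, no test was made over the list.

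Some markers of other liver cells differed between the same groups. The 6 Kupffer cell and macrophage markers summed to 5188 to 6311 normalized counts in NaCl/PBS and 2983 to 3413 in FeSO4/PBS mice, with 5 of 6 called lower. Of 5 neutrophil markers, 3 could be tested and all 3 were called higher, with sums of 44.9 to 159 and 562 to 746. The other markers, *Ly6g* and *Mpo*, stood at or near 0 and could not be tested. Of the 5 hepatocyte markers 2 were higher and 0 lower, and the sum of all 5 was 1797600 to 2164600 in NaCl/PBS and 2243700 to 2586200 in FeSO4/PBS mice. Most of that sum was *Alb*, which was not called (LFC 0.29, edgeR FDR 0.087). *Apob* went the other way and was not called either (LFC -0.30, edgeR FDR 0.122). The lists for other cells were mixed or rested on 1 call. Endothelial markers summed to 3624 to 4252 and 4388 to 5554 (2 higher, 1 lower of 5), and stellate cell markers to 1566 to 1715 and 1193 to 2032 (1 higher, 1 lower of 4). Lymphocyte markers summed to 385 to 417 and 183 to 269 (1 of 3 tested lower), and cholangiocyte markers to 72.6 to 94.4 and 272 to 653 (1 of 3 higher). The lymphocyte call was *Ptprc*, which made up most of that sum, with means of 367 in NaCl/PBS and 182 in FeSO4/PBS mice. *Cd3e* went the other way, with means of 13.1 and 31.7, and was not called (LFC 1.27, edgeR FDR 0.0539). The cholangiocyte call was *Sox9*, with means of 43.2 in NaCl/PBS and 412 in FeSO4/PBS mice. *Krt19* and *Epcam* were not called (LFC -0.18 and 0.49, edgeR FDR 0.752 and 0.338). The part of these shifts in the fall of the cholesterol synthesis genes was not tested, and in bulk liver fewer cells of a type and less RNA per cell cannot be told apart.

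In the DEX-treated mice, which share no animal with the comparison above, iron lowered 6 of the 7 genes and raised 0, against 20.9% of all tested genes called lower and 22.4% called higher. They were the same 6 genes, and all FeSO4/DEX mice lay below all NaCl/DEX mice for each of them (27.1% of all genes). The share of all tested genes called lower in both iron comparisons was not counted. An LFC beyond 1 in size was met by 5 of them, all but *Srebf2*, against 9.83% of all genes, and the median LFC of the 7 was -1.30 beside 0.01 for all tested genes. Scaling by library size alone gave 2151 genes higher and 4146 lower (3103 and 2902 with TMM) and a median of -0.18, with the members again 6 lower and 0 higher.

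*Hmgcs1* had 16808, 13623 and 14625 normalized counts in NaCl/DEX mice and 6275, 2326 and 3360 in FeSO4/DEX mice (LFC -1.91, SE 0.291, edgeR FDR 0.000132). *Idi1* had 1609, 1619 and 1617 in NaCl/DEX mice, hardly any spread, and 679, 203 and 270 in FeSO4/DEX mice (LFC -2.06, SE 0.328, edgeR FDR 0.000188). *Lss* had 2341, 1850 and 2685 against 947, 536 and 681, with an LFC of -1.66 (SE 0.216, edgeR FDR 3.55e-05). For these 3 genes the highest FeSO4/DEX value was still well under the lowest NaCl/DEX value.

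*Sqle* had 5122, 4152 and 4294 normalized counts in NaCl/DEX and 2525, 1309 and 1674 in FeSO4/DEX mice (LFC -1.30, SE 0.219, edgeR FDR 0.000301). *Fdps* had 533, 443 and 593 against 312, 216 and 229 (LFC -1.04, SE 0.196, edgeR FDR 0.000709). *Srebf2* had 2086, 2019 and 1821 against 1347, 1017 and 1069 (LFC -0.79, SE 0.118, edgeR FDR 0.000118). In all 3 genes FeSO4/DEX mouse 1 came closest to the controls without reaching them.

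*Insig1* again overlapped. It had 6971, 4475 and 5805 normalized counts in NaCl/DEX and 6354, 3548 and 5820 in FeSO4/DEX mice, and its LFC was -0.13 (SE 0.328, 95% interval -0.84 to 0.57, edgeR FDR 0.773).

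**Figure D2:**
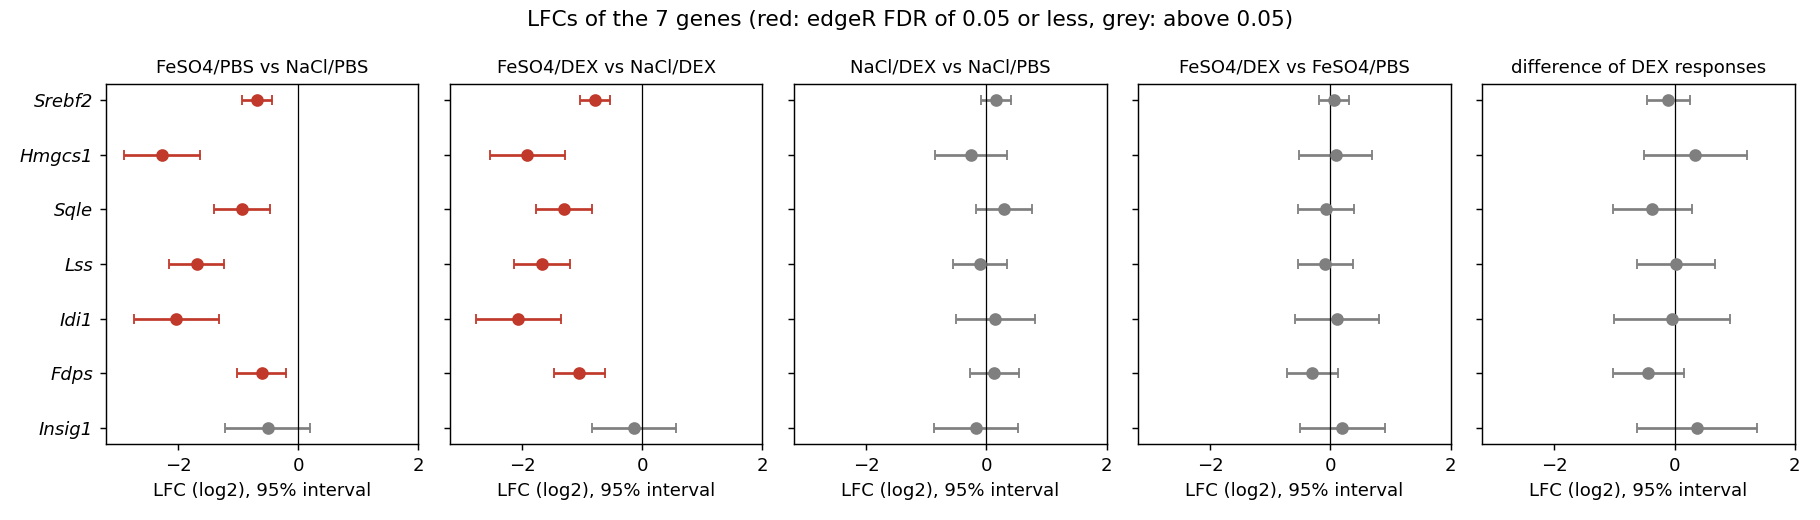
LFC (horizontal axis, log2 scale) of the 7 genes in the comparisons of iron and of DEX and for the difference between the DEX responses, with bars for the 95% interval and red for an edgeR FDR of 0.05 or less. In both iron comparisons the intervals of 6 genes lie below 0, and in both DEX comparisons and the difference all 7 intervals include 0.

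For DEX no call was made in any of the 7 genes. After NaCl, 0 of 7 were called in either direction, against 13.7% of all genes, and 0 of 7 had an unadjusted p under 0.05 (DESeq2 also called 0). The LFCs ran from -0.26 for *Hmgcs1* (95% interval -0.86 to 0.35) to 0.29 for *Sqle* (95% interval -0.17 to 0.76), with edgeR FDRs of 0.421 to 0.807, and the groups overlapped for all 7 (17.6% of all genes were higher and 20.3% lower without overlap). The narrowest interval was that of *Srebf2*, whose LFC of 0.16 had bounds of -0.09 and 0.41.

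After FeSO4, 0 of 7 were called as well. The background here is 0% of all genes, since edgeR called 0 genes between FeSO4/DEX and FeSO4/PBS mice at its FDR (900 of all genes had an unadjusted p under 0.05, and 0 of the 7 did, with 0 of the 7 called by DESeq2). The LFCs ran from -0.30 for *Fdps* (95% interval -0.73 to 0.12) to 0.20 for *Insig1* (95% interval -0.50 to 0.90).

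The iron response with and without DEX was compared directly by the interaction of both treatments. It was called for 0 of 7 genes (6.18% of all genes), with LFC differences from -0.44 for *Fdps* (95% interval -1.02 to 0.15) to 0.37 for *Insig1* (95% interval -0.62 to 1.37) and edgeR FDRs of 0.403 to 0.978. For *Hmgcs1* the difference was 0.35 (95% interval -0.51 to 1.20), and for *Lss*, the closest to 0, it was 0.02 (95% interval -0.62 to 0.67). The test thus found no difference, and the intervals are wide enough to hold changes of the iron response in either direction for each gene.

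Iron-treated mice differed from each other in most of these genes by more than the other mice did, with the exception of *Srebf2*, for which the SD of log2 CPM was 0.0024 in FeSO4/PBS, 0.11 in NaCl/PBS and 0.22 in FeSO4/DEX mice. The SD of log2 CPM between the mice of a group had a median over the 7 genes of 0.12 (NaCl/PBS) and 0.16 (NaCl/DEX) without iron, and of 0.37 (FeSO4/PBS) and 0.45 (FeSO4/DEX) with it. The medians over all tested genes were 0.16, 0.18, 0.27 and 0.20. In FeSO4/DEX the order of the mice was the same for every gene at its ends, with mouse 1 highest in 7 of 7 and mouse 2 lowest in 7 of 7. In FeSO4/PBS, mouse 2 was highest in 5 of 7 and mouse 3 lowest in 5 of 7. The share of all genes with these orders was not counted, so whether the orders are particular to the 7 genes is not known. In FeSO4/DEX mice 1 to 3 the macrophage marker *Csf1r* had the same order (840, 476 and 593 normalized counts), while *Insig2* did not (7014, 11379 and 8725).

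The median over the 7 genes of the log2 ratio to the NaCl/PBS mean was also taken for each liver. It was -0.61 in FeSO4/DEX mouse 1, -1.49 in mouse 2 and -1.14 in mouse 3, and -1.45, -0.71 and -1.36 in FeSO4/PBS mice 1 to 3. Among the FeSO4/PBS mice the lowest median was that of mouse 1, although mouse 3 was lowest in 5 of the 7 genes. In the NaCl/PBS and NaCl/DEX mice the median lay between -0.12 and 0.15, apart from all iron-treated mice. Over all tested genes the same median lay between -0.04 and 0.00 in the 12 livers.

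Because the genes fell by unequal amounts, the make-up of their transcripts shifted. *Hmgcs1* gave 50.4% to 54.8% of the reads on the 7 genes in NaCl/PBS mice and 23.9% to 40.6% in FeSO4/PBS mice. The share of *Insig1* was 16% to 23.4% in NaCl/PBS and 20.4% to 44.1% in FeSO4/PBS mice. With DEX, the share of *Hmgcs1* was 46.5% to 48.3% after NaCl and 25.4% to 34.0% after FeSO4, again without overlap.

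Levels of different genes can be compared only per length, here as TMM-scaled CPM per kilobase of all annotated exons. In NaCl/PBS livers *Hmgcs1* was the highest with 172 ± 14.8 (SD, n = 3), followed by *Insig1* with 67.0. *Sqle* (20.9) and *Idi1* (20.7) had overlapping ranges over mice, as did *Lss* (11.0) and *Srebf2* (9.56), and *Fdps* was lowest with 4.92. In FeSO4/PBS livers *Insig1* had 47.2 and *Hmgcs1* 35.9 ± 9.97 with overlapping ranges, and *Idi1*, at 5.08, lay below *Sqle*, at 11.0. When the length of the canonical transcript was used in place of all exons, an alternative chosen after seeing the data, *Hmgcs1* (221), *Insig1* (119) and *Sqle* (66.3) led in NaCl/PBS livers, *Idi1* (28.3) lay below *Sqle* without overlap, and *Lss* (19.6), *Fdps* (18.4) and *Srebf2* (17.6) had overlapping ranges.

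**Figure D3:**
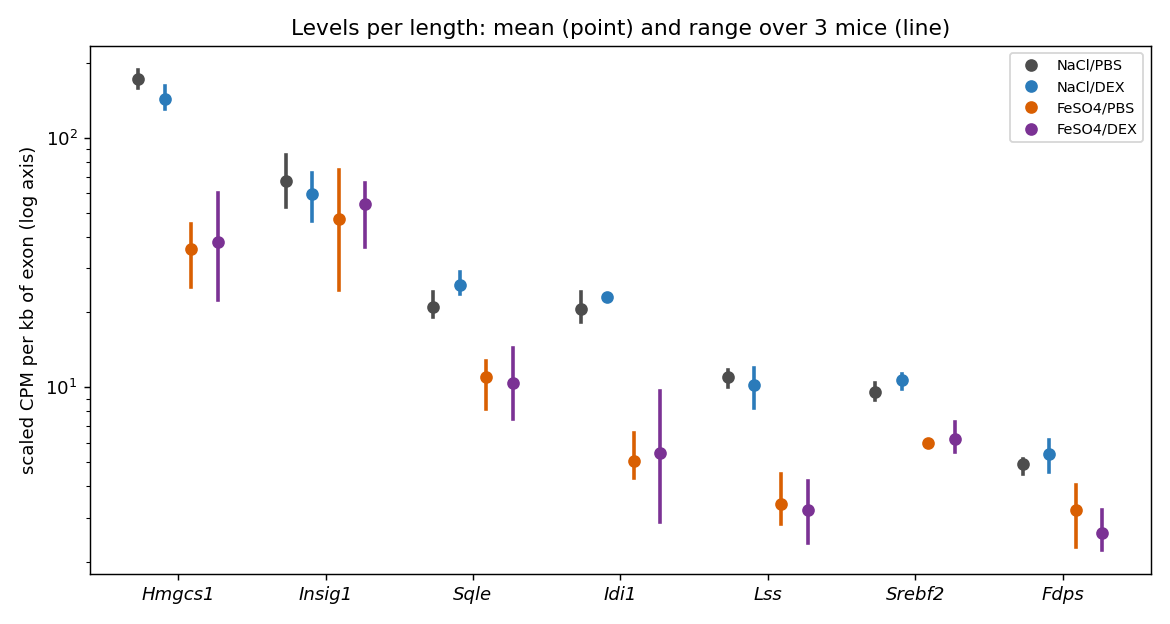
Level per exon length (TMM-scaled CPM per kilobase, log axis) of the 7 genes in each group, with points for the group mean and lines for the range over 3 mice. *Hmgcs1* stands highest in the NaCl groups at 172 in NaCl/PBS and drops to 35.9 in FeSO4/PBS, where its range overlaps that of *Insig1* at 47.2.

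Exons of 5 members overlap an exon of a gene on the opposite strand. The strand setting of the counting is not given in the sources used here, so how reads in these shared stretches were assigned or set aside is not known. *Washc5*, the partner of *Sqle*, had a mean of 651 normalized counts in NaCl/PBS and 575 in FeSO4/PBS mice. The other partners were low, with *Nim1k* beside *Hmgcs1* at 59.3 in NaCl/PBS mice, *Gm15343* beside *Lss* at 43.1, *Shisa8* beside *Srebf2* at 1.80 and *Gm48574* beside *Idi1* at 0.

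The remaining genes of sterol synthesis and its control, 24 in all and all tested, were examined in the same way. Of the 14 other synthesis enzymes, iron without DEX lowered 8 and raised 2, where 27.3% of all tested genes were lower and 27.2% higher, with a median LFC of -0.90. With DEX it lowered 10 and raised 0 (20.9% and 22.4% of all genes), with a median of -1.05. Of these enzymes 8 were lower in both comparisons (among them *Acat2*, *Mvk*, *Mvd*, *Cyp51* and *Msmo1*), without a count over all genes to set beside them. The call of *Cyp51* without DEX was lost without FeSO4/PBS mouse 1 or mouse 3 (edgeR FDR 0.056 and 0.0675). Of the 7 genes of SREBP processing and sterol sensing, iron lowered 2 and raised 2 without DEX, and lowered 3 and raised 2 with DEX. Of 3 other sterol-regulated genes, 1 was lower without DEX and 0 with DEX. Over the 24 genes that makes 11 lower and 4 higher without DEX (27.3% and 27.2% of all genes) and 13 lower and 2 higher with DEX (20.9% and 22.4% of all genes). Scaling by library size alone gave 16 lower and 2 higher without DEX, where 5829 of 13857 tested genes were lower and 2285 higher. With DEX it gave 16 lower and 0 higher, where 4146 of 13857 were lower and 2151 higher.

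Of the enzymes called lower without DEX, *Mvd*, which makes isopentenyl diphosphate, fell by 1.95 on the log2 scale (SE 0.314, edgeR FDR 0.000143). *Sc5d*, the sterol C5-desaturase, fell by 1.38 (SE 0.212, edgeR FDR 9.6e-05), and with DEX by 1.07 (SE 0.21, edgeR FDR 0.001). *Msmo1*, the C4-methyl sterol oxidase, fell by 1.51 with DEX (SE 0.256, edgeR FDR 0.000305). *Mvd* acts between the steps of *Hmgcs1* and *Idi1*, and *Msmo1* and *Sc5d* act after that of *Lss*. The enzymes called higher without DEX were *Ebp*, the sterol isomerase, with an LFC of 0.46 (SE 0.127, edgeR FDR 0.00662), and *Tm7sf2*, a sterol C14-reductase, with 0.36 (SE 0.144, edgeR FDR 0.0454). The mice overlapped for *Tm7sf2*, whose call was lost in 7 of the 12 fits without 1 mouse, and both calls were lost with scaling by library size alone (edgeR FDR 0.306 for *Ebp* and 0.811 for *Tm7sf2*).

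Among the control genes, *Rnf145*, a sterol-responsive ubiquitin ligase of the endoplasmic reticulum that acts on SCAP, fell by 1.34 without DEX (SE 0.162, edgeR FDR 1.2e-05) and by 1.16 with DEX (SE 0.162, edgeR FDR 6.8e-05). *Mbtps2*, the site-2 protease that cuts SREBP in the membrane, was higher with iron by an LFC of 0.64 without DEX (SE 0.129, edgeR FDR 0.00079) and 0.39 with DEX (SE 0.131, edgeR FDR 0.0267). *Scap* was called higher in the mice given DEX, with an LFC of 0.37 (SE 0.134, edgeR FDR 0.0352). The calls of *Mbtps2* and *Scap* with DEX were lost with scaling by library size alone, with edgeR FDRs of 0.275 and 0.318. That of *Mbtps2* was also lost without NaCl/DEX mouse 1 or 3 or FeSO4/DEX mouse 2 or 3 (FDR up to 0.125), and that of *Scap* without NaCl/PBS mouse 1, NaCl/DEX mouse 1 or 2 or any FeSO4/DEX mouse (FDR up to 0.137).

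**Figure D4:**
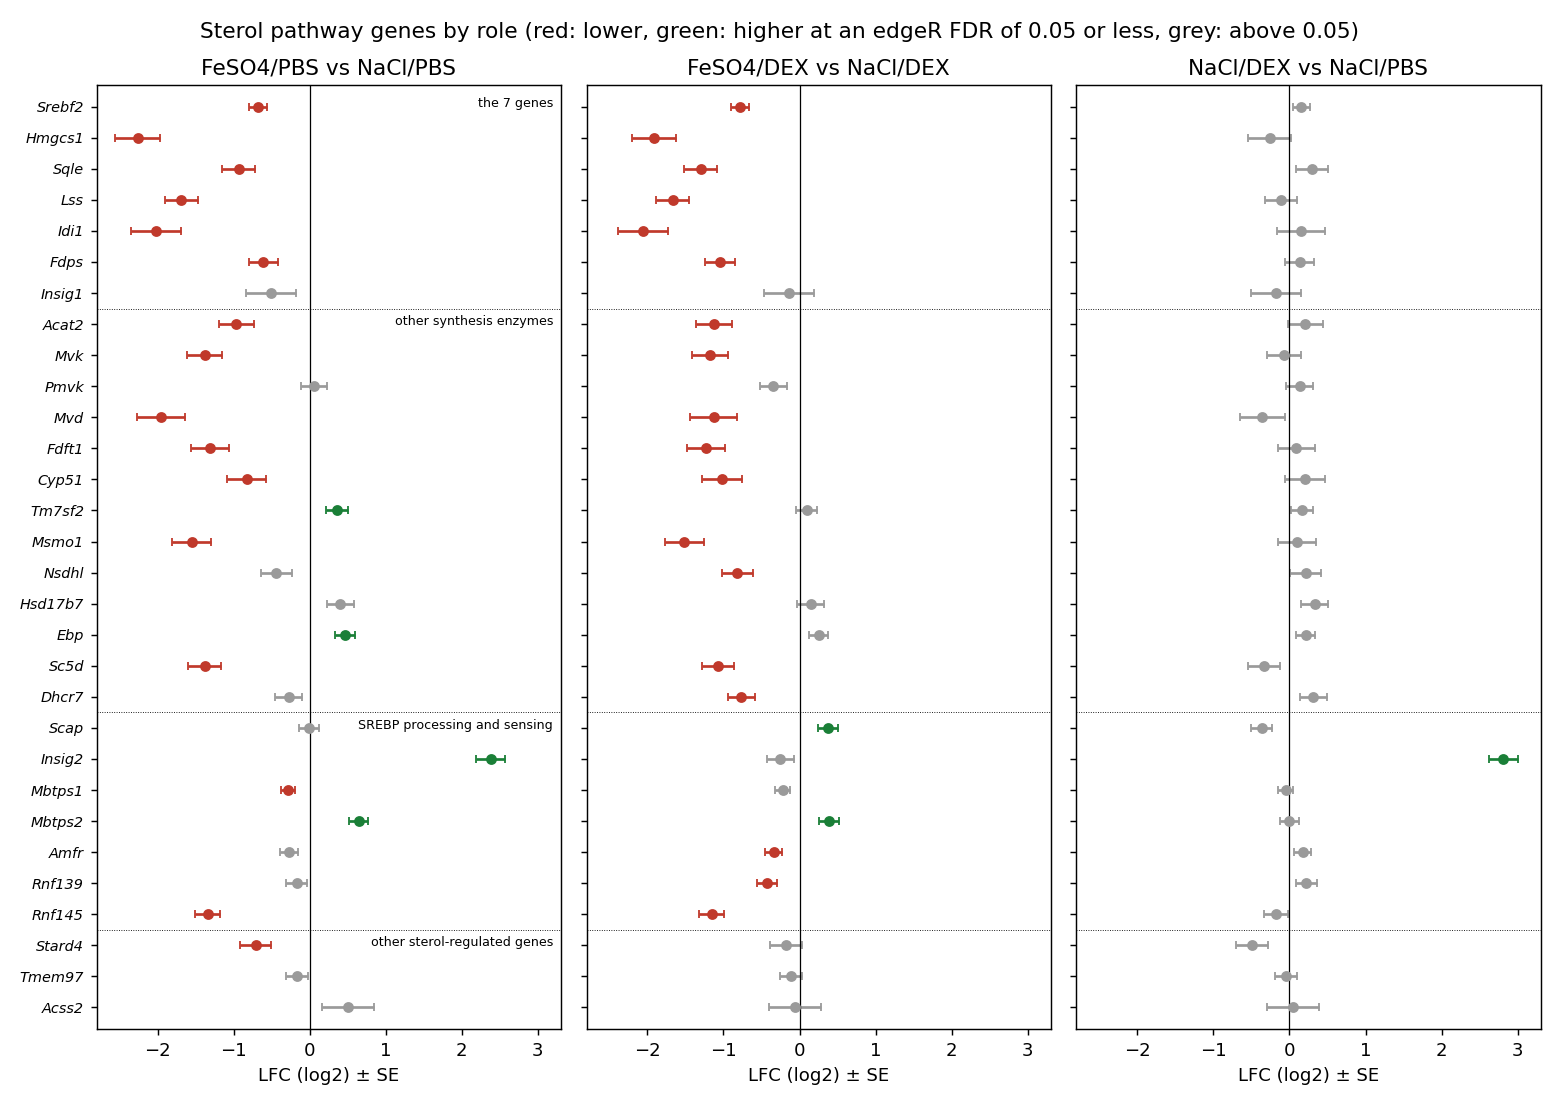
LFC (horizontal axis, log2 scale) of the 7 genes and other sterol pathway genes in 3 comparisons, by role, with bars for 1 SE. Red points are genes called lower and green points genes called higher, and grey points were not called. Most synthesis enzymes lie below 0 with iron, and *Insig2* stands far above 0 with iron alone and with DEX after NaCl.

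*Insig2*, the gene of the other INSIG protein, whose transcript in liver is known to be controlled apart from that of *Insig1*, stood apart. It had 1557, 1235 and 1809 normalized counts in NaCl/PBS mice and 8511, 8289 and 7161 in FeSO4/PBS mice (LFC 2.38, SE 0.19, edgeR FDR 3.28e-07). In NaCl/DEX mice it had 10682, 12361 and 9235 (LFC 2.81 against NaCl/PBS, SE 0.194, edgeR FDR 6.84e-07). Both increases are measured against the same NaCl/PBS mice. With FeSO4 alone and with DEX alone, *Insig2* thus lay far above every NaCl/PBS mouse. The study reported more corticosterone, the glucocorticoid made by mice, in serum after FeSO4. Its part in the *Insig2* level of FeSO4/PBS mice was not tested.

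In FeSO4/DEX mice, which received both treatments, *Insig2* had 7014, 11379 and 8725 normalized counts. They overlapped those of the groups with either treatment alone, and DEX after FeSO4 gave an LFC of 0.18 (95% interval -0.21 to 0.57, edgeR FDR 0.876). Against NaCl/DEX mice the LFC was -0.25 (95% interval -0.64 to 0.14, edgeR FDR 0.281). Without FeSO4/DEX mouse 2 that LFC was -0.49 at an edgeR FDR of 0.0469, so the absence of a call depended on this mouse. The interaction was -2.63 (SE 0.26, edgeR FDR 5.84e-05), the only one called among the 24 genes, where 6.18% of all genes were called. With DEX after NaCl, 2 of the 24 genes were called higher, *Insig2* among them, and 0 lower, where 6.5% of all genes were called higher. With DEX after FeSO4, 0 of the 24 were called, where 0% of all genes were.

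**Figure D5:**
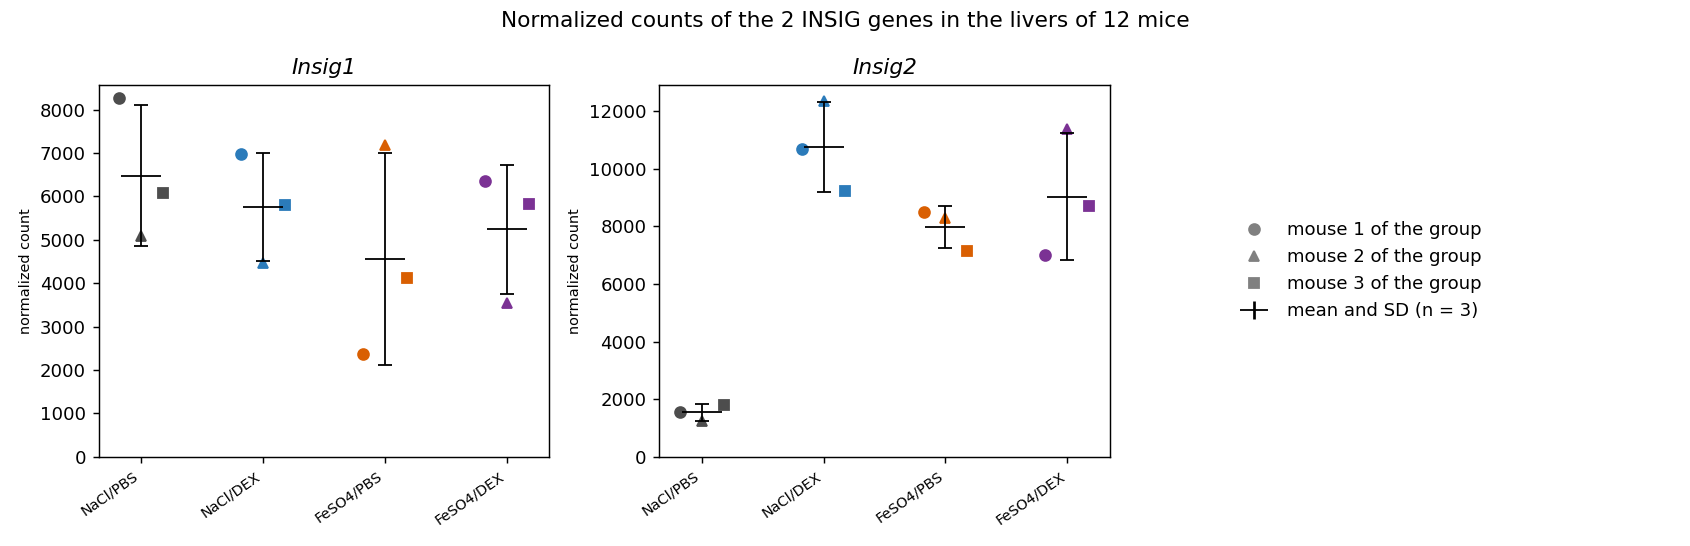
Normalized counts (vertical axis, linear, from 0) of *Insig1* and *Insig2* in the 12 livers by group, with symbols for the mice and bars for the mean and SD (n = 3). *Insig2* spans 1235 to 1809 in NaCl/PBS mice and 7014 to 12361 elsewhere, while *Insig1* overlaps between all groups.

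The genes whose log2 CPM followed each member most closely over the 12 livers were found among 8951 genes with a mean of at least 100 normalized counts. Since the iron-treated livers stand apart from the others, these r values mostly describe the difference between groups. *Sqle* was followed by *Msmo1* (r = 0.975) and *Fdft1* (r = 0.971), both synthesis enzymes, and *Fdps* by *Fgfr1op2* (r = 0.957) and *Fdft1* (r = 0.941). *Idi1* was followed by *Shtn1* (r = 0.977) and *Msmo1* (r = 0.976). The genes most like the others were not of the pathway. They were *Galnt10* (r = 0.983) and *Dynll1* (r = 0.976) for *Srebf2*, *Wdfy2* and *Pcyox1* (both r = 0.984) for *Hmgcs1*, *Slc31a1* (r = 0.983) and *Zbtb33* (r = 0.977) for *Lss*, and *Pde8a* (r = 0.938) and *Cfhr4* (r = 0.897) for *Insig1*.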

How the data were processed

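Livers of 12 mice were analysed by bulk RNAseq. Per the labels and the study's methods, the authors prepared stranded mRNA libraries, sequenced single-end reads on a NovaSeq, checked them with FastQC and mapped them to mm39 with STAR 2.7.10b, which counted reads per gene. The values the authors deposited are raw counts of 55414 genes, of which 30401 had no read. Symbols came from GENCODE vM39 for 54749 genes. All 12 libraries entered 1 edgeR 4.0.16 quasi-likelihood model in R 4.3.3 with a mean per group, after filterByExpr (13857 genes) and TMM. Comparisons were tested as contrasts, and an FDR of 0.05 or less was a call. LFCs used a prior count of 0.125. Mice of a group differed from each other beyond sampling noise (chi-square per gene 18.3 to 89.5), so each was 1 replicate. The highest values were 89.5 and 71.4, for FeSO4/PBS mouse 1 against mice 2 and 3, where mouse 2 against mouse 3 gave 24. Scripts were tested on simulated data.

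The members and lists were chosen with earlier results of these data known. Of the 24 other pathway genes, those called in a contrast were given values, or the 4 of lowest FDR in each direction where over 8 were called, and for likeness the 2 genes of highest r per member. The values of 1 gene of the list are not reported here, although it enters the counts. Alternatives were DESeq2 1.42.0, its size factors, library size alone, other filters, a minimum LFC of 1, the replicate number as a block, only the libraries of a contrast, and each mouse left out. Promoters were searched with Python 3.11.15.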

Additional observations from a re-analysis of the deposited data

Results flagged for a closer look

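The response of *Insig2* to DEX differed between mice given NaCl and mice given FeSO4, by the interaction test of the model. The LFC after DEX was 2.81 after NaCl and 0.18 after FeSO4, a difference of -2.63 (SE 0.26, edgeR FDR 5.84e-05). It lay between -2.87 and -2.48 when 1 mouse was left out in turn.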

How the results depend on the processing

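The 6 members called lower with iron were called under every alternative with an FDR threshold alone, with and without DEX, apart from *Fdps* in 1 fit without a mouse. The cause of the changes below was not tested. Requiring an LFC beyond 1 left 3 members lower without DEX, 1 other pathway gene higher and 7 lower, 1 higher with DEX after NaCl and 0 higher with iron in DEX-treated mice. Library size alone gave 2 others higher with iron without DEX, 1 higher and 1 lower with DEX after NaCl, and 0 higher with iron in DEX-treated mice. Without a filter 1 other gene was lower with DEX after NaCl, 1 lower with DEX after FeSO4, 0 higher with iron in DEX-treated mice and 1 higher in the interaction, and with only the libraries of a contrast 1 was lower with DEX after NaCl. Uncalled LFCs changed sign with library size alone, to -0.0012 for *Idi1* and -0.0223 for *Fdps* with DEX after NaCl and to 0.0234 for *Srebf2* and 0.11 for *Idi1* in the interaction, and that of *Lss* in the interaction became -0.0153 with DESeq2's size factors and -0.0163 with DESeq2.

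With 1 mouse left out, members called lower with iron numbered 5 to 7 without DEX (5 without FeSO4/PBS mouse 3, 7 without FeSO4/PBS mouse 2) and 6 in DEX-treated mice. Other pathway genes numbered 1 to 2 higher and 0 to 1 lower with DEX after NaCl, 0 to 2 higher with iron in DEX-treated mice (0 without NaCl/DEX mouse 1, FeSO4/DEX mouse 2 or FeSO4/DEX mouse 3) and 1 to 2 lower in the interaction. Uncalled LFCs that changed sign ran, with DEX after NaCl, from -0.24 to 0.0258 for *Lss* and -0.33 to 0.0518 for *Insig1*. With DEX after FeSO4 they ran from -0.0817 to 0.12 for *Srebf2*, -0.40 to 0.35 for *Hmgcs1*, -0.38 to 0.11 for *Sqle*, -0.33 to 0.16 for *Lss*, -0.60 to 0.41 for *Idi1*, -0.13 to 0.69 for *Insig1* and -0.0386 to 0.33 for *Insig2*. That of *Insig1* with iron in DEX-treated mice ran from -0.30 to 0.0505, and in the interaction *Hmgcs1* ran from -0.14 to 0.59, *Lss* from -0.23 to 0.27 and *Idi1* from -0.75 to 0.23.

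The replicate numbers were shared between groups but did not pair the mice, since deviations from the group means of same-numbered mice correlated by only -0.092 to 0.129. With the number as a block, 6 members were lower with iron with and without DEX, 0 were called for DEX, and the LFC of *Hmgcs1* was -2.29 without DEX and -1.99 with it. With 3 mice per group an exact permutation test could not go below p = 0.1, so all calls rest on edgeR's pooled spread.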
